A study of Mus musculus with 3 samples.

Results

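The Hox genes are the homeobox genes of the Hoxa, Hoxb, Hoxc and Hoxd clusters, and 39 of the 21755 protein-coding genes of the GENCODE vM21 annotation on chromosomes 1 to 19 and X carry such a name. Members were taken by symbol, so that no measured value chose them, and a narrow H3K4me3 peak was assigned to a gene when its centre lay within 1 kb of any annotated transcript start. H3K4me3, trimethylation of lysine 4 of histone H3, was measured by ChIP-seq with the antibody Abcam ab8580 in whole adult testis of (C57BL/6J x CAST/Eij)F1 males with the Prdm9 genotype Humanized/CAST, aged 23 weeks. Their mothers were C57BL/6J-Prdm9 Hum/B6 and their fathers CAST/Eij, and the humanised allele carries the human zinc-finger array in place of the C57BL/6J array in an otherwise murine gene. All 3 libraries, 2 H3K4me3 ChIP replicates and 1 input without antibody, share this genotype, so that the comparisons are between genes and between libraries of 1 condition.

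Hox genes encode transcription factors that give cells of the embryo their position along the head-to-tail axis, and the genes of each cluster lie on the chromosome in the order in which they act along that axis. Paralog number rises from genes acting near the head to genes acting near the tail, where the highest numbers also pattern limbs and the urogenital tract. H3K4me3 marks the starts of genes, is laid down there by enzymes of the Trithorax type, and often lies over CpG-rich promoters of developmental genes together with the repressive Polycomb mark H3K27me3, which was not measured here. In meiotic germ cells PRDM9 places H3K4me3 at recombination hotspots as well, away from most promoters.

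DNA at the start region is shown for the gene with the highest start peak of each cluster and for the gene with the lowest, or in Hoxb the gene without one, because CpG density is the sequence feature most often tied to this mark. CG dinucleotides are in capitals, and every sequence is on the coding strand of its gene, 5′ to 3′, in mm10. For Hoxd8, Hoxd12, Hoxa2 and Hoxb8 these are the 250 bases before the RefSeq start (GRCm38.p6), at chr2:74704365-74704614 (+), chr2:74674763-74675012 (+), chr6:52164832-52165081 (-) and chr11:96281655-96281904 (+). None of their bases is exonic, and none of these windows holds a peak centre.
Hoxd8: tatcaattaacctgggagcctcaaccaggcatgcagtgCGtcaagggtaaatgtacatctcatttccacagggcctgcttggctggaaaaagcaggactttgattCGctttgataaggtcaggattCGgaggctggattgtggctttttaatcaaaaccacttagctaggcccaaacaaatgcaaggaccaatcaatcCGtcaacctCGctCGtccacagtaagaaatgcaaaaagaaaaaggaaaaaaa
Hoxd12: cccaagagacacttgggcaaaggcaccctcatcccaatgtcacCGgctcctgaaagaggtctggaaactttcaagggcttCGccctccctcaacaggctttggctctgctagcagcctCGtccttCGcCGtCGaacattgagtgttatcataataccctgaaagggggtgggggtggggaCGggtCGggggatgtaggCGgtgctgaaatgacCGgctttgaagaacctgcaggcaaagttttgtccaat
Hoxa2: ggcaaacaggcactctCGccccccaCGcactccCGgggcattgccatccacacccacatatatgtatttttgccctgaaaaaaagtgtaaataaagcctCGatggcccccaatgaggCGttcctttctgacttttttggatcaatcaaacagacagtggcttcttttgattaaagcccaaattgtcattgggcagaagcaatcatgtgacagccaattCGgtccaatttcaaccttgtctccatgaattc
Hoxb8: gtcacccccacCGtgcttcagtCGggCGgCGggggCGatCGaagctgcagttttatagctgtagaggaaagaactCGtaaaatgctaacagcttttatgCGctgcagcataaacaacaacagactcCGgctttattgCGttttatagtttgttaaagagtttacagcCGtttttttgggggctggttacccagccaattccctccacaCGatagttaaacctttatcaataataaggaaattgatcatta

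For Hoxa4, Hoxb3, Hoxc12 and Hoxc11 the 200 bases centred on the strongest start peak are shown, from chr6:52191056-52191255 (-), chr11:96340816-96341015 (+), chr15:102937054-102937253 (+) and chr15:102954914-102955113 (+). The Hoxc12 and Hoxc11 windows lie wholly in coding exon, 78 of the 200 bases of the Hoxa4 window are coding, and the Hoxb3 window has 25 exonic bases and no coding base.
Hoxa4: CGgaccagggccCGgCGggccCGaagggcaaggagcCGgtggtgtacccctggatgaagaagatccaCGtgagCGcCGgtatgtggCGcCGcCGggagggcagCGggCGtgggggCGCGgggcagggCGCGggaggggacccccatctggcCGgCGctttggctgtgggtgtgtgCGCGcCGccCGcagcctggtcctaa
Hoxb3: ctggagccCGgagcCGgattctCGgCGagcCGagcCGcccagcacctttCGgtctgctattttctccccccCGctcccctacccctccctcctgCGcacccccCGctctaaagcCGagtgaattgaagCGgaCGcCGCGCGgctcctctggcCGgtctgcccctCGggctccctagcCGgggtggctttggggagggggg
Hoxc12: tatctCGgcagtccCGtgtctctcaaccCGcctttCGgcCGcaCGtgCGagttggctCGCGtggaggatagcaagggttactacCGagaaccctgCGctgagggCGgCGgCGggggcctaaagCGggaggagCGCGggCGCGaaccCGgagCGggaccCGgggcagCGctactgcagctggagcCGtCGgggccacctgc
Hoxc11: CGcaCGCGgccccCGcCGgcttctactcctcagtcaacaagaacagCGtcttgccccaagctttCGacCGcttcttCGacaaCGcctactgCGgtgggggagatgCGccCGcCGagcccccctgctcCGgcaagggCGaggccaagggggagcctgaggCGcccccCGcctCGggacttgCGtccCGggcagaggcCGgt

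The windows at the peak centres hold 19 to 25 CG dinucleotides in 200 bases, whereas the 250 bases before the starts of Hoxd8 and Hoxa2 hold 6, those of Hoxd12 10 and those of Hoxb8 12. These are different regions of different genes. Around their own strongest peaks, which lie downstream of the start, 300 bases hold 38 CG dinucleotides at Hoxd8, 22 at Hoxd12 and 29 at Hoxa2, so that the sequence under these peaks was richer in CG than the sequence before the starts.

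The deposited table gives 101978 narrow peaks with the fragments covering each centre, and these sum to 17621116 for replicate 1, to 19094837 for replicate 2 and to 1250138 for the input. These sums cover peak centres only and are not the depth of the libraries. Enrichment is the maximum-likelihood excess over local background coverage, in units of that background, with 0 meaning no excess. The authors estimated it from both replicates together, so that it has no replicate error. The ratio of ChIP to input fragments at a centre is therefore given with an exact 95% binomial interval, which covers counting error only. Among marker genes, 10 of 10 germ cell genes had a start peak (median enrichment 38.3, from 9.43 at Tnp1 to 113 at Sycp3), as had 7 of 8 Sertoli, 5 of 6 Leydig and 3 of 4 peritubular and vascular genes, with medians of 11.0, 10.3 and 4.31. Among genes of other organs, Cd3e (6.66) and Gfap (1.46) had one, and Alb, Ins2 and Myh6 had none. Over all protein-coding genes 77.4% had a start peak, with a median enrichment of 37.6. These short lists are a description and do not by themselves show the cell types of the labelled tissue, whole testis. In this mixture a mark borne by few cells and a weak mark in many cells cannot be told apart, and the part of each cell type in the Hox values was not tested.

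Nearly every Hox gene carried H3K4me3 at a start, but weakly. A narrow peak lay within 1 kb of a start in 38 of 39 genes, beside 77.4% of all protein-coding genes. Within 500 bp the count was 27, beside 71.7%. A broad peak, a run of enriched 100-bp bins, covered a start in all 39, beside 76.5%. The median enrichment of the strongest start peak was 8.03 in the 38 genes (interquartile range 5.45 to 13.99, range 1.85 to 41.4), against 37.6 (14.7 to 65.3) in the 16844 protein-coding genes with a start peak. Only Hoxd8 and Hoxa4 lay above the median of all genes, where 50% lie by definition, and 29 of 38 lay in the lowest quartile, where 25% lie. Of these, 10 fell below the 10th percentile.

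The difference from other genes stood in the ChIP fragments, while the median input counts were close. At the strongest start peak the Hox genes had a median of 139.5 fragments in replicate 1 and 149 in replicate 2, against 695 and 762 over all genes with a peak, while the input medians were 17.5 and 19. The broad peaks around them were of usual width, 3050 bp in the median against 3200 bp.

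**Figure D1:**
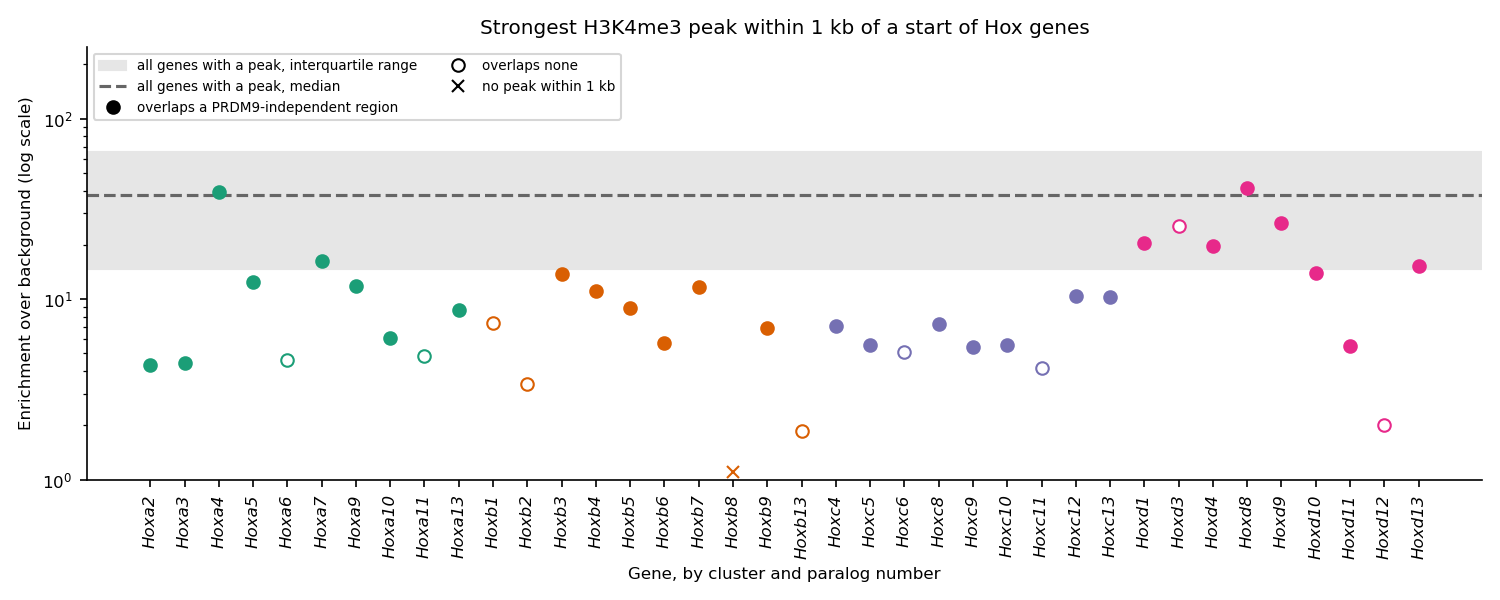
Enrichment over background (log axis, in units of background) of the strongest narrow peak within 1 kb of a start of the Hox genes named on the axis, ordered by cluster and paralog number, with the interquartile range (14.7 to 65.3) and the median (37.6) of all protein-coding genes with a peak. Filled points overlap a PRDM9-independent region and open points overlap none, the cross marks Hoxb8, which has no such peak and is drawn at an arbitrary height, and 29 points lie below the grey band.

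The Hoxd cluster on chromosome 2 had the strongest start peaks, with a median enrichment of 19.8 over 9 genes. Hoxd8, a central gene of the cluster, was covered by 800 and 965 fragments in the ChIP replicates, in this order here and below, and by 20 in the input, with an enrichment of 41.4 and 88.3 ChIP fragments per input fragment (interval 57.0 to 145). Hoxd9 had 725, 680 and 25 fragments (enrichment 26.3). Hoxd3, which acts in the vertebrae of the neck, had 213, 222 and 8 (25.5). No other Hoxd gene came above an enrichment of 25, and with 8 input fragments the ratio of 54.4 at Hoxd3 has a wide interval, from 27.4 to 127.

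At the ends of the cluster, Hoxd1 had 711, 695 and 32 fragments (20.6), and Hoxd13, a gene of digit and genital patterning, had 459, 489 and 29 (15.3). Both ends were thus marked at a similar ratio, 43.9 ChIP per input fragment (31.0 to 64.5) and 32.7 (22.6 to 49.1), with overlapping intervals. Hoxd4 had 570, 532 and 26 fragments (19.8), and Hoxd10, known for lumbar motor neurons, had 127, 114 and 8 (14.1). The Hoxd4 peak lies 292 bp from an upstream Hoxd4 start and 294 bp from a Hoxd3 start. Peaks at the inner Hoxd4 starts reached 2.93 and 5.14. The median of the cluster is the value of this Hoxd4 peak.

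Within the same cluster Hoxd11 and Hoxd12, genes of the forearm and hand, were low. Hoxd11 had 121, 129 and 21 fragments (5.47) and Hoxd12 had 37, 36 and 16 (2.01). The ratio at Hoxd12, 4.56 (2.63 to 8.40), did not overlap that of Hoxd13 and overlapped in part that of Hoxd11, 11.9 (7.62 to 19.6).

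In the Hoxa cluster on chromosome 6 the values spread from 4.31 to 39.0 around a median of 8.73 over 11 genes. Hoxa4, whose transcripts are known from male germ cells, had 588, 660 and 15 fragments (enrichment 39.0, ratio 83.2 with interval 50.2 to 149). Its interval overlaps that of Hoxd8, so that the order of Hoxd8 and Hoxa4 is not resolved by the counts.

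Other genes of the cluster were far lower. Hoxa2, which patterns the second pharyngeal arch, had 106, 111 and 23 fragments (4.31), and Hoxa3, needed for thymus and parathyroid, had 62, 64 and 13 (4.43). Their ratios, 9.43 (6.13 to 15.2) and 9.69 (5.47 to 18.7), did not overlap the interval of Hoxa4. The 4.43 of Hoxa3 belongs to an upstream start, 45 bp from the peak at chr6:52213160 between Hoxa6 and Hoxa7, and the peak near its inner starts reached 4.34.

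Hoxa7 had 326, 302 and 18 fragments (16.3), Hoxa5, a gene of lung and lower neck, had 400, 401 and 30 (12.4), and Hoxa9, known from blood progenitors, had 231, 277 and 20 (11.8). Hoxa6 between Hoxa5 and Hoxa7 had 36, 54 and 9 (4.57). Towards the posterior end, Hoxa10 and Hoxa11, both required in the uterus, had 55, 64 and 9 (6.09) and 85, 106 and 18 (4.86). Hoxa13, the last gene and a regulator of digits and the lower urogenital tract, had 155, 184 and 18 (8.73). The values followed no steady order along the cluster. Spearman's rho of paralog number with enrichment was -0.05 over its 11 genes, a description of points that share libraries. The cluster lies in a stretch of chromosome 6 that the study left out of its event calls because founder mice were not fully inbred there, and the part of this in the coverage was not tested.

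The Hoxb cluster on chromosome 11 had a median of 7.33 over 9 genes with a peak and held both the lowest member and the member without a peak. Hoxb13, a gene of prostate and tail that lies apart from the rest of the cluster, had 36, 44 and 19 fragments (enrichment 1.85, ratio 4.21, 2.53 to 7.36), the lowest of all Hox genes. Hoxb1, which gives a hindbrain segment its identity, had 92, 130 and 14 (7.33). Hoxb2 had 7, 8 and 2 (3.40), in a broad peak of only 200 bp, and with so few fragments its ratio of 7.50 is known only to 1.74 to 67.6.

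Hoxb3 was highest in the cluster with 167, 188 and 12 fragments (13.8), followed by Hoxb7 with 154, 198 and 14 (11.7) and Hoxb4, known from blood stem cells, with 234, 291 and 22 (11.1). Hoxb5 had 215, 187 and 21 (8.88), Hoxb9 149, 209 and 24 (6.89) and Hoxb6 82, 104 and 15 (5.70). The intervals of neighbours in this order overlap. No Hoxb gene reached the lower quartile of all genes, 14.7.

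Hoxb8, which acts in thoracic patterning and in myeloid cells, has 3 annotated starts. The peak nearest to any of them was centred 1841 bp downstream at chr11:96284566, with 121, 163 and 13 fragments and an enrichment of 10.2, so that Hoxb8 lacked a start peak but had one inside the gene. A broad peak of 5900 bp that also holds the Hoxb7 peak covered 2 of its 3 starts. Just inside the 1-kb limit lay Hoxd10, 824 bp from its start, and Hoxb4, 797 bp.

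The Hoxc cluster on chromosome 15 had the lowest median, 5.54, and the narrowest range, 4.16 to 10.4, of peaks within the 1-kb limit. Hoxc12 had 290, 338 and 28 fragments (10.4) and Hoxc13, the last gene, which acts in hair and nails, had 152, 159 and 14 (10.3). Hoxc11 had the lowest value of the cluster, 69, 86 and 17 (4.16, ratio 9.12, 5.51 to 16.1). Hoxc4 at the anterior end had 102, 128 and 15 (7.09), and Hoxc8, known for the thoracic spinal cord, had 130, 139 and 17 (7.32).

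Hoxc9 had 76, 66 and 12 fragments (5.44) and Hoxc6 51, 60 and 10 (5.09). Hoxc5 and Hoxc10 were assigned the same peak at chr15:102966884, with 110, 131 and 20 fragments (5.54), because 1 annotated Hoxc5 transcript starts 559 bp from it, next to Hoxc10. The inner Hoxc5 start has a stronger peak, 279, 321 and 16 fragments (17.5), at 1261 bp, outside the limit. The same holds for Hoxc6, where a peak of 15.8 lies 1093 bp from a start. The 38 genes therefore rest on 37 distinct peaks. In 7 genes (Hoxa3, Hoxb2, Hoxb3, Hoxb6, Hoxc5, Hoxc6 and Hoxc9) a stronger peak lay elsewhere between 1 kb before the gene and its end. Annotated genes overlap, so that this peak is the Hoxa4 start peak for Hoxa3, and Hoxc5 and Hoxc9 share the peak at chr15:102981975. This alternative was chosen after the data were seen.

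Strongest start peaks of the Hox genes lay further into the gene than usual. Their centres were a median of 308 bp downstream of the nearest start, against 131 bp for all genes with a peak. They lay downstream in 30 of 38 genes, beside 77.4% of all genes, so that the side was as usual and the distance was longer. Of the 83 annotated starts of the 39 genes, 71 lay in a broad peak and 65 had a narrow peak within 1 kb.

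The 2 ChIP libraries gave the same picture of the Hox genes. Over the 37 distinct peaks, Pearson's r of their log2 fragments was 0.99 and Spearman's rho 0.99, a description of peaks that share both libraries. Replicate 1 held 48.0% of the ChIP fragments at the Hox peaks (8430 against 9129), as it did over all narrow peaks (48.0%). In the exact two-sided binomial test against that share, adjusted over all 101978 peaks by Benjamini-Hochberg, 0 of 37 Hox peaks differed (smallest adjusted p = 0.284), beside 4.16% of the 15498 distinct strongest start peaks and 0.773% of all narrow peaks. Fewer fragments covered the Hox start peaks than start peaks of all genes, 139.5 against 695 in the median of replicate 1. The test therefore had less power at the Hox peaks.

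At an unadjusted p under 0.05 the count was 5, Hoxd9, Hoxd4, Hoxd8, Hoxb9 and Hoxb5, beside 8.23% of all narrow peaks. The share of replicate 1 ran from 40% at Hoxa6 to 53.5% at Hoxc9. With the expected share taken from the median ratio over peaks, 1 Hox peak, Hoxd9, was called different, higher in replicate 1 (exact binomial test, adjusted p = 0.0219), beside 2.13% of all narrow peaks. This test compares the libraries and no condition.

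**Figure D2:**
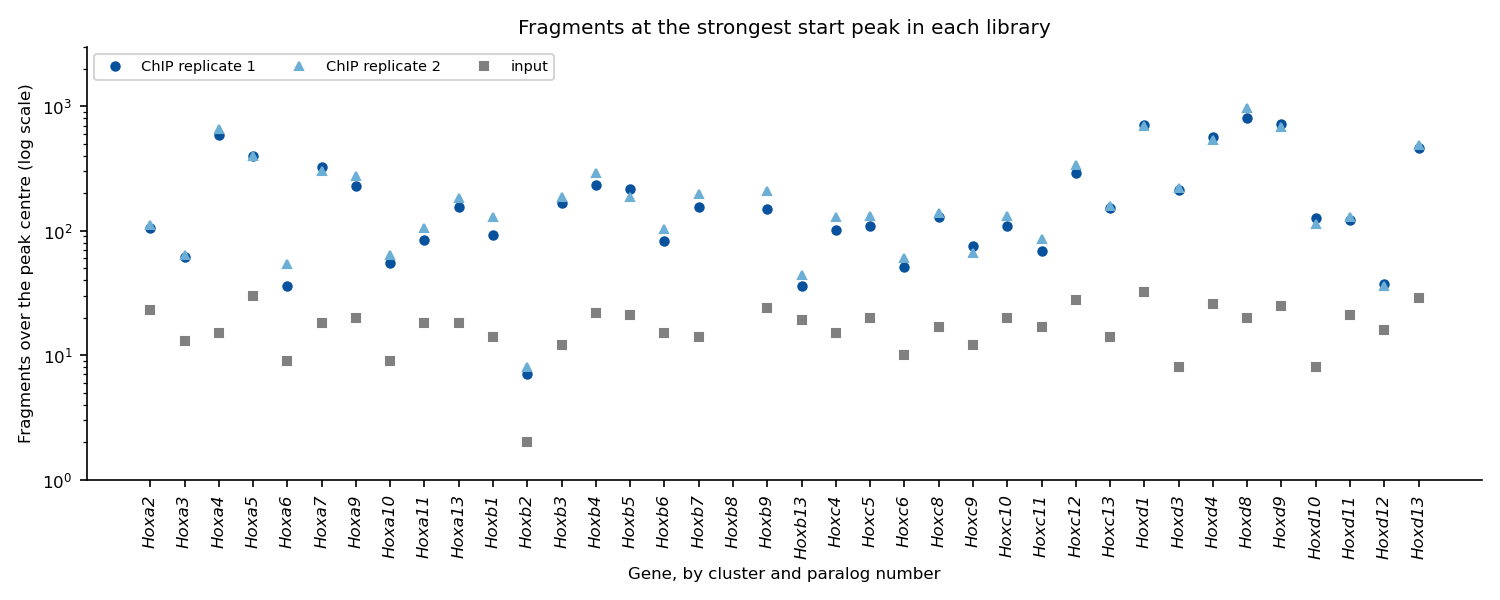
Fragments covering the centre of the strongest start peak of the Hox genes named on the axis (log axis) in ChIP replicate 1, ChIP replicate 2 and the input, ordered by cluster and paralog number, with no point for Hoxb8. The replicates lie close together at each gene, from 7 and 8 fragments at Hoxb2 to 800 and 965 at Hoxd8, and the input stays between 2 and 32.

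Large parts of the clusters lay under broad peaks. From the first to the last base of their Hox genes, broad peaks covered 56.4% of the 96.833 kb of Hoxd (16 peaks), 52.0% of the 105.291 kb of Hoxa (20 peaks), 39.9% of the 115.75 kb of Hoxc (25 peaks) and 38.0% of the 173.941 kb of Hoxb (28 peaks). Together this is 45.1%, against 6.43% of the non-N genome and 3.1% to 22.3% of the 100 kb on either side of each cluster. The mean width of the peaks was 3481 bp in Hoxd, 2790 bp in Hoxa, 2400 bp in Hoxb and 1916 bp in Hoxc.

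The widest broad peak, 11500 bp, held the start peaks of both Hoxd9 and Hoxd10. In Hoxb, 1 broad peak of 7300 bp held those of Hoxb5 and Hoxb6. Around Hoxb13 the peaks were weak, and the long interval between Hoxb13 and Hoxb9 held scattered peaks with no Hox start among them. The cluster spans held 114 narrow peaks, 2.18 to 2.48 per 10 kb against 0.398 in the genome.

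Of the 114 narrow peaks, 49 lay within 1 kb of a Hox start, 19 within 1 kb of a noncoding start only, and 46 near neither. Their median enrichments were 6.09, 4.26 and 3.35. Signal away from the Hox starts was thus weaker in the median but included the strongest peak of 3 clusters.

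In Hoxd, the peak at chr2:74753268 had 677, 744 and 13 fragments and an enrichment of 51.3 (ratio 109, 63.7 to 206), above every Hox start peak. It lies 179 bp from a start of Haglr, a long noncoding RNA transcribed in the opposite direction to the Hoxd genes. In Hoxc, the strongest peak was at chr15:102942976 with 469, 501 and 15 fragments (30.3), between Hoxc12 and Hoxc11 and 2383 bp from the nearest noncoding start, and the next, at chr15:102981975 inside Hoxc9, had 465, 526 and 24 (19.3). In Hoxb, the strongest was at chr11:96346015 inside Hoxb3 with 347, 347 and 17 (19.1).

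In Hoxa the start peak of Hoxa4 remained highest, and strong peaks also lay away from the Hox starts. One was inside Hoxa3 at chr6:52170278 with 572, 581 and 22 fragments (24.5), near no annotated start. A further peak inside Hoxa3, at chr6:52175953 with 232, 205 and 9 (22.7), lies 718 bp from a start of the antisense gene Hoxaas3. The low start values of Hoxa3 therefore stood beside strong peaks over its body.

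**Figure D3:**
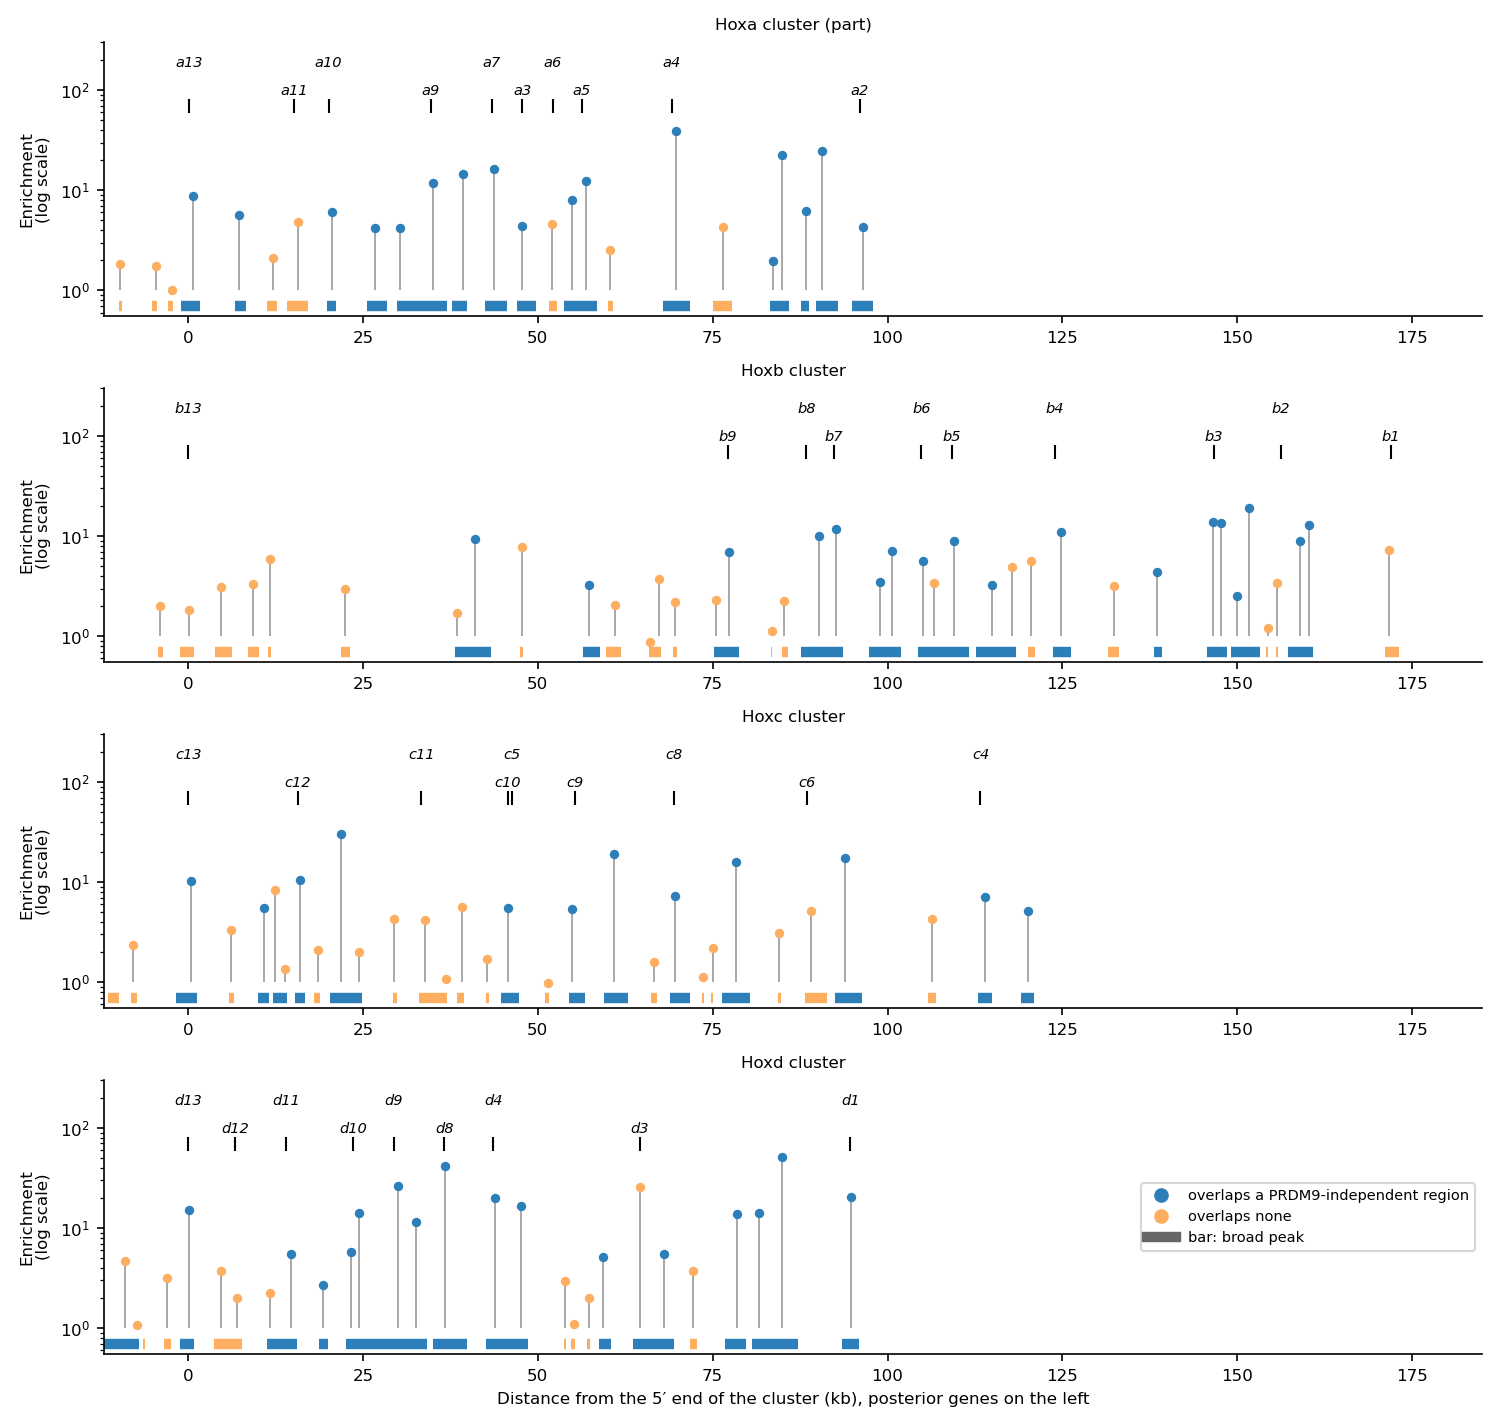
Narrow peaks (points with stems, enrichment on a log axis) and broad peaks (bars at the foot) along the Hoxa, Hoxb, Hoxc and Hoxd clusters, in kb from the 5′ end of the Hox genes with posterior genes on the left, blue where they overlap a PRDM9-independent region and orange where they overlap none, with the Hoxa map ending just past Hoxa2. Ticks mark the start nearest to the strongest start peak of each gene drawn, or the annotated start furthest downstream for Hoxb8. Hoxa3 and Hoxd4 are thus placed at upstream starts and Hoxc5 beside Hoxc10. The highest points away from the ticks include 51.3 in Hoxd and 30.3 in Hoxc.

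Noncoding genes of the clusters were marked unevenly. A narrow peak lay within 1 kb of a start in 8 of 9 antisense genes, beside 54.8% of such genes on the same chromosomes, and 4 of the 8 peaks also lay within 1 kb of a Hox start. The count was 2 of 5 for lincRNA genes (beside 47%), none of them at a Hox start, 5 of 7 for miRNA genes (beside 22%), 1 of them at a Hox start, and 7 of 16 for genes of the class misc_RNA (beside 18.9%), 2 of them at a Hox start. The shares beside these counts do not allow for the denser peaks of the clusters, 2.18 to 2.48 per 10 kb against 0.398 in the genome. Whether the noncoding starts exceed other positions in the clusters was not tested. Hoxb3os had a peak of its own with 154, 150 and 11 fragments (12.9), near no Hox start. Hotair, the Hoxc lincRNA known for Polycomb recruitment, had none, with the nearest peak at 2232 bp.

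Among the miRNA genes, of which the Mir10 and Mir196 families target Hox transcripts, Mir615 lay 166 bp from the peak of 17.5. That peak is 1261 bp from the inner Hoxc5 start. Mir196b had 79, 76 and 17 fragments (4.16), Mir10b 9, 9 and 4 (1.99) and Mir196a-2 15, 16 and 13 (0.99). The Mir196b peak lay 424 bp from that gene and 57 bp from a start of Hoxa9. Mir10a and Mir196a-1 had no peak within 1 kb, the nearest centres being 1899 and 1187 bp away.

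The authors also deposited PRDM9-independent regions, which are H3K4me3 regions shared by mice with different Prdm9 alleles in earlier experiments. The strongest start peaks of 9 of 38 Hox genes overlapped no such region, beside 8.25% of all genes with a peak. They were those of Hoxa6, Hoxa11, Hoxb1, Hoxb2, Hoxb13, Hoxc6, Hoxc11, Hoxd3 and Hoxd12. Hoxd3 apart (25.5), their enrichments were low, from 1.85 to 7.33, and the broad peak around the Hoxd3 peak did overlap such a region. Whether the peaks outside these regions depend on PRDM9 was not tested.

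Of the 114 narrow peaks in the cluster spans, 51 (44.7%) overlapped no PRDM9-independent region, beside 61.3% of all narrow peaks. The share was 21.7% in Hoxa, 33.3% in Hoxd, 53.8% in Hoxb and 60.7% in Hoxc. In each cluster the peaks outside the regions were the weaker ones, with median enrichments of 4.34 against 8.34 in Hoxa, 3.12 against 8.97 in Hoxb, 2.22 against 10.3 in Hoxc and 2.59 against 14.0 in Hoxd.

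Values of genes from different positions along the axis overlapped. The median enrichment was 10.6 in the 8 anterior genes (paralogs 1 to 3), 9.99 in the 14 central genes with a peak (4 to 8) and 6.49 in the 16 posterior genes (9 to 13), with values down to 3.40, 4.57 and 1.85 and up to 41.4 in the central genes and 26.3 in the posterior ones. Spearman's rho of paralog number with enrichment was -0.23 over the 38 genes, -0.63 in Hoxd and 0.28 in Hoxc, descriptions over genes of the same libraries.

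Paralogs, the copies of 1 ancestral gene in different clusters, were alike in some groups and far apart in others. The 4 genes of paralog 13 ran from 1.85 (Hoxb13) to 15.3 (Hoxd13), an 8.25-fold range, and those of paralog 4 from 7.09 (Hoxc4) to 39.0 (Hoxa4), a 5.51-fold range. The 3 genes of paralog 6 stayed between 4.57 and 5.70, a 1.25-fold range, and the 3 of paralog 11 between 4.16 and 5.47. The counting intervals of the ratios overlap within groups 6 and 11, whereas those of Hoxb13 and Hoxd13 do not.

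The TALE, Polycomb and Trithorax lists of partners and regulators had higher medians than the Hox genes, a description without a test between lists. The ParaHox and Cdx list, which holds upstream regulators too, had a lower median (5.26). The TALE homeobox proteins, which bind DNA together with HOX proteins, had a start peak at 9 of 9 genes (median 22.0), up to 99.1 at Pknox1, with 3 above the median of all genes. In the Polycomb group, which represses Hox genes, 20 of 20 had a peak (median 58.4) and 17 lay above the median of all genes, from Pcgf2 (32.0) and Cbx8 (32.1) to Suz12 (112). Of 10 Trithorax group, H3K27 demethylase and Ctcf genes 9 lay above it (median 73.3), and Kdm6b (2.44) was the exception.

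Homeobox relatives had low values as well. Evx1 and Evx2, which adjoin the posterior ends of Hoxa and Hoxd, had 25, 44 and 10 fragments (3.12) and 23, 28 and 5 (4.67). The 6 ParaHox and Cdx genes had a median of 5.26, from Pdx1 (2.86) to Cdx2 (11.8), all in the lowest quartile of all genes. Among 32 other developmental regulators, such as Pax, Sox, Tbx and Dlx genes, all had a peak, the median was 10.5 (interquartile range 6.41 to 13.8), none lay above the median of all genes and 25 lay in the lowest quartile. The range ran from Tbx5 (2.22) to Pax5 (29.9), and the Hox median of 8.03 lies inside their interquartile range. The strongest peak of 7 of these genes lay outside the PRDM9-independent regions, against 9 of 38 in the Hox genes.

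Values of the genes next to the clusters were mixed. Apart from Evx1 and Evx2, the 11 listed neighbours had a median of 50.6, 7 lay above the median of all genes and 2 in the lowest quartile. Lnpk and Mtx2 on either side of Hoxd had 2625, 2659 and 33 fragments (75.3) and 2688, 2687 and 39 (64.8). Both neighbours in the lowest quartile flank Hoxb. Skap1 beside Hoxb1 had 48, 70 and 12 (4.50), and Ttll6 on the other side of Hoxb had 15, 12 and 1 (12.6).

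**Figure D4:**
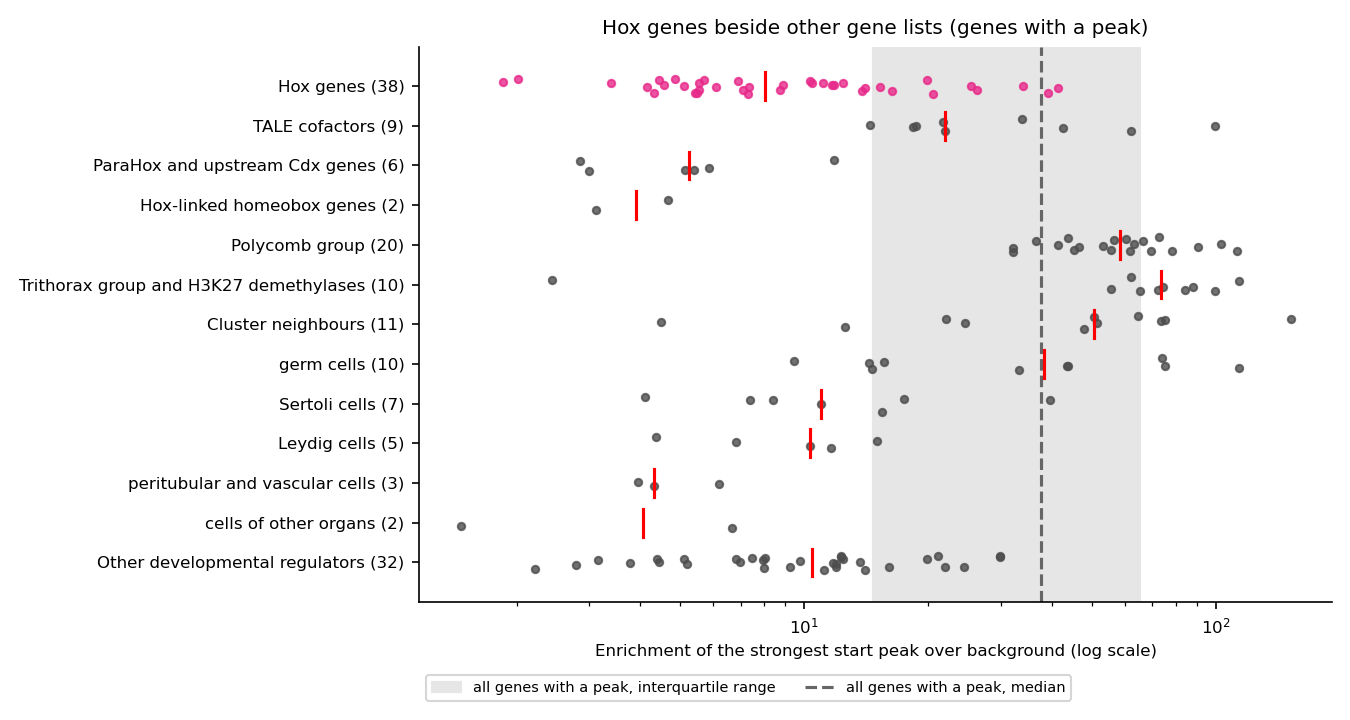
Enrichment of the strongest start peak (log axis, in units of background) of the 38 Hox genes and of the genes with a peak in 12 other lists, 1 point a gene with random vertical scatter, red bars at the medians, and the median (37.6) and interquartile range (14.7 to 65.3) of all protein-coding genes with a peak. The Hox median (8.03) lies beside that of other developmental regulators (10.5) and left of those of the Polycomb group (58.4) and the cluster neighbours (50.6).

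CpG density was not low at the Hox starts. The RefSeq promoter table (250 bases before to 50 after a start) held 22 of the 39 genes in 24 windows and lacked 17. These windows had a median of 14.5 CG dinucleotides, against 14 for symbols of protein-coding genes, and in 12 of 24 (50%) the CG count exceeded 0.6 of that expected from base composition, against 49.3%. In the 300 bases around the strongest start peak the median rose to 29, against 26 for all such peaks on the chromosomes of the clusters, and 34 of 38 (89.5%) passed the same limit, against 74.7%.

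Over 12894 protein-coding genes with a window and a peak, Spearman's rho of CG count with enrichment was 0.47. Over the 21 Hox genes with both it was -0.03. Windows and peaks were joined by gene symbol, so that they can belong to different starts of a gene. Among genes with 20 to 29 CG dinucleotides the median enrichment was 52.3 over all 3735 genes and 12.4 over the 9 Hox genes. With 0 to 9, it was 11.8 over all genes and 14.1 over 6 Hox genes. With 10 to 19, it was 36.8 over all genes and 6.10 over 4 Hox genes, and with 30 or more it was 57.4 over all genes, where the 2 Hox genes were Hoxd13 (15.3) and Hoxa13 (8.73). Hoxa13 had the most CG dinucleotides, 45 in 300 bases, at an enrichment of 8.73, and Hoxd8 had 6 at 41.4. In the 300 bases around the strongest peak both genes had 38. Of the 6 Hox genes with 0 to 9, Hoxd4 had its window at a start whose peak reached 2.93. Its enrichment of 19.8 belongs to another start. The Hoxa7 and Hoxa9 windows lay at starts without a peak centre within 1 kb.

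**Figure D5:**
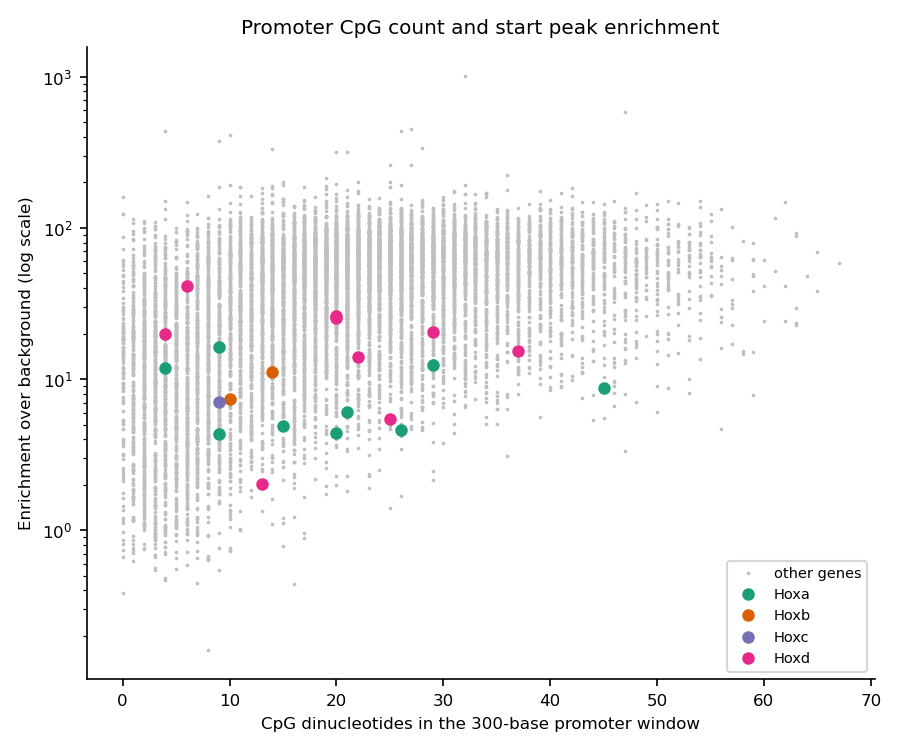
CG dinucleotides in the 300-base RefSeq promoter window (the richest window where a gene has several) against the enrichment of the strongest start peak (log axis, in units of background), for 12894 protein-coding genes in grey and the 21 Hox genes with both in the colour of their cluster. Grey points rise with CG count, and the Hox points do not, so that those with 20 to 29 lie around 12.4 where the grey median is 52.3. Window and peak were joined by gene symbol and can belong to different starts of a gene.

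Short promoter motifs were counted on both strands as plain matches. CCAAT stood in 15 of 24 Hox windows (62.5%), against 37.9% of windows of protein-coding symbols and 37.4% of all windows. GGGCGG, the Sp/KLF box, stood in 10 (41.7%, against 48.0% and 35.7%), and TATAAA in 4 (16.7%, against 12.1% and 13.6%), those of Hoxd13, Hoxd4, Hoxa10 and Hoxb8. The PBX-HOX element TGATTNAT stood in 2 windows (8.33%, against 2.65% and 3.22%), those of Hoxa2 and Hoxd11. The Hoxa2 match lies in the sequence printed above. A match says only that these letters occur in the window.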

How the data were processed

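H3K4me3 ChIP-seq peaks called jointly on 2 ChIP replicates against 1 input were used. The authors aligned paired reads to mm10 with BWA (SAMtools and bedtools are also named in the submitters' processing notes) and Stampy, removed duplicates, and deposited, without normalization, fragment counts at each narrow peak centre, an enrichment ratio (excess over local background, with 0 at background) and a p-value, the ratio and the p-value from both replicates together. Narrow centres are at least 1 kb apart. For broad peaks and PRDM9-independent regions only coordinates were deposited. Members, gene lists and the choice of sequences were made with earlier results of these data known.

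Peak centres were joined to GENCODE vM21 transcript starts, and the peak with the highest deposited enrichment within 1 kb represented a gene. Values in every library were given for the 5 highest and 5 lowest members, the first and last gene of each cluster and members without a peak, with other members added for context, and for up to 6 genes of any other list. ChIP-to-input ratios carry exact 95% binomial intervals. Replicates were compared by an exact binomial test with Benjamini-Hochberg adjustment, tested on simulated data. The individual values of some genes under these rules are not reported here, and counts and medians include them. With 1 condition, no differential count model was fitted. A peak was counted outside the PRDM9-independent regions when its deposited 1-bp centre overlapped none. Sources differ on the animals (a testis from each of 2 littermates in the methods, both testes of a single male in the labels), so that the spread between replicates may be technical. Python 3.11.15, numpy 2.4.6, pandas 2.3.3 and scipy 1.17.1 were used.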

Additional observations from a re-analysis of the deposited data

How the results depend on the processing

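The count of Hox genes with a start peak ranged from 27 of 39 (limit of 500 bp) to 39 (2 kb, or broad peaks). Beside these, 71.7%, 80.4% and 76.5% of all protein-coding genes had a peak, so that no excess remained at 500 bp. The count was 35 with the gene record's 5′ end alone (beside 71.2%) and 37 with p under 1e-10 (beside 76.2%). With peaks in PRDM9-independent regions only it was 30 (beside 71.4%). The Hox median enrichment stayed between 6.99 and 10.8, and 21 to 29 genes lay in the lowest quartile. Without replicate 1 or replicate 2 the count was 38 and 38, beside 77.1% and 76.9% of all genes. The median of 1 replicate over input, with 1 added to both, was 8.64 and 7.74. The lowest quartile held 29 and 28, and 2 and 2 genes lay above the median. That last number fell to 1 at 500 bp, where Hoxa4 lost its peak, and to 0 with PRDM9-independent peaks only. It rose to 3 with the nearest peak within 1 kb. Over the gene body it was 3 too, but there Hoxa3 was counted by the Hoxa4 start peak, which lies inside its annotated span. The share of the 4 clusters under broad peaks was 41.3% with spans widened by 10 kb and 35.6% with broad peaks in PRDM9-independent regions only. Over all narrow peaks, 788 differed between replicates, 2169 with the median ratio (1 of them at a Hox start) and 28 with the extra spread allowed for. The median CG count was 29 around peaks. The causes were not tested. The alternatives over the gene body and over the confidence interval of the centre (9 peaks outside the regions) were chosen after seeing the data. No paired analysis was possible because the input has no partner numbers and there is 1 condition. Low input counts, 2 to 32 at the Hox peaks, limit the precision of every ratio.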
